A study of Mus musculus with 8 samples.

Results

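A set of 10 cell-surface adhesion genes of the immunoglobulin superfamily was examined in adult mouse bone marrow: Esam, F11r, Jam2, Jam3, Cxadr, Pecam1, Mcam, Alcam, Ncam1 and Cadm1. The genes were chosen by name as members of that superfamily, with earlier results of these data known, and all 10 of 10 were found among the 24011 named genes of the arrays, each with 1 probe set. RNA from sorted marrow cells of adult C57Bl6 mice was compared between 4 arrays of Lin+ cells, marrow cells positive for antigens of maturing blood lineages, and 4 arrays of a rare fraction enriched for haematopoietic stem cells (HSCs), called HSC-enriched here. The sample labels define the HSC-enriched fraction as LSKCD105+CD48neg, where LSK stands for cells without lineage antigens that carry Sca-1 and Kit, and the series' design text gives CD150 in place of CD105. No treatment or genotype is labelled for either group, and neither the number of mice nor the purity of the sorts is given. Nothing says that the arrays came from separate animals, so the p-values cover the spread among these samples alone, and that spread may be technical.

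Immunoglobulin-type adhesion molecules sit in the cell membrane with immunoglobulin domains facing outward, and they bind either the same protein on the next cell or a partner such as an integrin. The JAM proteins, ESAM and the coxsackie and adenovirus receptor hold together tight junctions of endothelium and epithelium through scaffold proteins bound to their cytoplasmic tails. Several of them are also found on platelets, leukocytes and blood stem cells, where there are no tight junctions, and ESAM is used as a surface marker of mouse stem cells.

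Levels are log2 values, so a difference of 1 is 2-fold, and differences are HSC-enriched minus Lin+. All arrays together gave array medians of 5.22 to 5.33, and correlations across probe sets (no independent replicates) ran from 0.978 to 0.986 within a group and from 0.893 to 0.922 across groups. As a guide to background, the 95th percentile of the mean levels of olfactory receptor genes was 5.06. Of the antigens named for the sort, the sources give CD105 (Eng) and CD150 (Slamf1) as alternatives. Kit, Eng and Slamf1 were higher and Cd48 lower in the HSC-enriched fraction. Ly6a, which encodes Sca-1, was not found among the named genes. Of the marker lists, 11 of 11 HSC genes rose, while 9 of 9 B cell, 10 of 10 T and NK cell, 11 of 12 neutrophil, 9 of 9 monocyte and macrophage, 8 of 8 erythroid, 6 of 8 eosinophil, basophil and mast cell and 4 of 6 plasmacytoid dendritic cell genes fell. Among all genes tested 15.5% rose and 12.4% fell. Kit, Eng and Slamf1 are also in the HSC list, and Lin+ cells carry lineage antigens, so these counts only describe the sort. Replicates 3 and 4 of the HSC-enriched group stood apart: the mean of 12 neutrophil markers was 6.82 and 6.71 on replicates 1 and 2 but 9.40 and 9.21 on those arrays, against 11.64 to 11.91 on Lin+ arrays. Replicate 3 was also the highest of its group in the means of B cell markers (6.19 against 4.82 to 5.01), monocyte and macrophage markers (5.32 against 4.69 to 4.94) and erythroid markers (5.88 against 4.97 to 5.44). The counts of calls and the difference of each member were also computed without those replicates.

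The JAM genes and Esam were higher in the HSC-enriched fraction, and Ncam1 was lower. F11r, Esam, Jam3 and Jam2 were higher by 14.5-, 4.24-, 3.76- and 2.27-fold, and Ncam1 was lower by 4.93-fold. Alcam and Cxadr were higher, and Pecam1, Cadm1 and Mcam lower, by less than 2-fold. At an adjusted p under 0.05 (limma, Benjamini-Hochberg over all genes) 6 were higher and 4 lower, against 15.5% higher and 12.4% lower among all genes tested, and 4 were at least 2-fold higher and 1 at least 2-fold lower, against 4.80% and 6.08%. The arrays of the groups did not overlap for 5 higher and 4 lower members, against 15.9% and 13.0% of all genes. The median difference of the members was 0.48, beside 0.02 for all genes. In sorted pools, fewer cells that express a gene and less RNA per cell cannot be told apart.

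**Figure D1:**
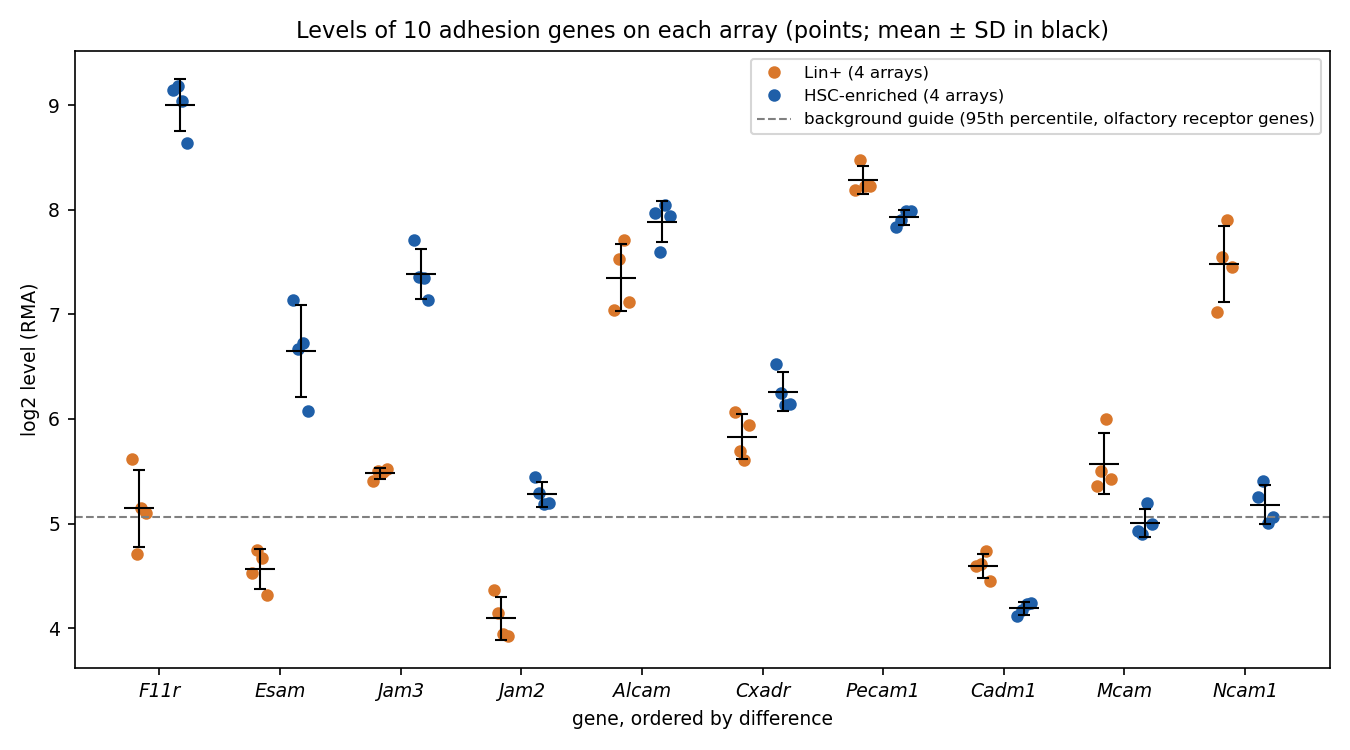
Log2 level (vertical axis) of each of the 10 genes (horizontal axis, in order of difference) on 4 Lin+ and 4 HSC-enriched arrays, 1 point per array, with mean ± SD in black and the background guide of 5.06 as a dashed line. F11r, Esam, Jam3 and Jam2 show HSC-enriched points wholly above the Lin+ points, Ncam1 shows the reverse, and only Alcam overlaps.

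F11r (Entrez gene 16456) encodes JAM-A, a junctional protein of epithelium, endothelium, platelets and leukocytes that also binds the integrin LFA-1. Its level was 9.15, 9.18, 9.04 and 8.64 on HSC-enriched replicates 1 to 4, and 5.61, 4.71, 5.15 and 5.10 on Lin+ replicates 1 to 4. The lowest HSC-enriched array lay 3.03 above the highest Lin+ array. The difference of 3.86 (SE 0.19, 95% interval 3.43 to 4.29, adjusted p = 5.2e-07, n = 4 and 4) was the 17th highest of the 24011 genes. The Lin+ mean of 5.14 was close to the background guide, so the fold rests on a Lin+ level near background.

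Upstream sequence was found in RefSeq's promoter table (GRCm38.p6) for 3 of the 10 members, F11r, Mcam and Alcam. The 250 bases before the annotated start of F11r, the member with the widest difference, are shown beside those of Mcam, a member that was lower in the HSC-enriched fraction, with every GGGCGG box (the core of the Sp1 motif, searched on both strands) in capitals. The F11r window lies at chr1:171437311-171437560 on the plus strand and the Mcam window at chr9:44134408-44134657 on the plus strand, both 5′ to 3′.
F11r: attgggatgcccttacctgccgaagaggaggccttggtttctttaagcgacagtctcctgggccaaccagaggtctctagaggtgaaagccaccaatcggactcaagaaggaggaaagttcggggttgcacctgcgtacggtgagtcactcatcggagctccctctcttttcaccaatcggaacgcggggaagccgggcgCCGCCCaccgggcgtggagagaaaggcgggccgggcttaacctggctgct
Mcam: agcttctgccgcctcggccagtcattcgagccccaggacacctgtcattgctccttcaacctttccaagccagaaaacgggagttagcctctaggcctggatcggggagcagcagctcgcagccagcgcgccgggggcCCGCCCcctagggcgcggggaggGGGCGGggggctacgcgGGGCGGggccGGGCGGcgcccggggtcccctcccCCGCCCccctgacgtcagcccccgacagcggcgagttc
The F11r window held 1 such box, the Mcam window 5 and the Alcam window 2, and 32.7% of all 32851 windows of this length in the table held at least 1. None of the 3 windows held the GATA factor motif AGATAA, present in 9.99% of all windows. The ETS factor motif CCGGAAG, present in 6.91%, was not in them on either strand. The same held for the E-box motif CACGTG, present in 6.02%. GC content was 60.0% for F11r, 73.6% for Mcam and 69.2% for Alcam, with a median of 52.4% over the table.

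Esam (69524) encodes the endothelial cell-selective adhesion molecule, which binds itself between endothelial cells and between platelets. Its HSC-enriched levels were 7.14, 6.67, 6.73 and 6.07, and its Lin+ levels 4.53, 4.75, 4.67 and 4.32. The groups did not overlap, although HSC-enriched replicate 4 was 0.59 below the next array of its group, and all 4 Lin+ arrays lay under the background guide. The difference was 2.09 (SE 0.20, 95% interval 1.63 to 2.54, adjusted p = 2.9e-05). Among the members its HSC-enriched SD was the widest, at 0.44, where the median gene had 0.18.

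Jam3 (83964) encodes JAM-C, which pairs with JAM-B on neighbouring cells and binds the leukocyte integrin Mac-1. Jam3 was at 7.71, 7.36, 7.35 and 7.14 on the HSC-enriched arrays and at 5.41, 5.50, 5.49 and 5.52 on the Lin+ arrays. The Lin+ arrays agreed within 0.12 of each other and lay above the background guide, and the gap between the groups was 1.62. Jam3 thereby rose by 1.91 (SE 0.13, 95% interval 1.63 to 2.19, adjusted p = 2.4e-06).

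Jam2 (67374) encodes JAM-B, the partner of JAM-C and a ligand of the integrin VLA-4. It was at 5.45, 5.29, 5.19 and 5.20 on the HSC-enriched arrays, all just above the background guide, and at 4.36, 4.15, 3.94 and 3.93 on the Lin+ arrays, all below it. Groups were separated by 0.82. Jam2 rose by 1.19 (SE 0.13, 95% interval 0.91 to 1.47, adjusted p = 5.0e-05), so that both genes of the JAM-B and JAM-C pair had higher transcript levels in the HSC-enriched fraction.

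Alcam and Cxadr were higher by smaller amounts. Alcam (11658) encodes CD166, which binds itself and CD6 on T cells, and Cxadr (13052) encodes the coxsackie and adenovirus receptor, a tight junction protein. Alcam was at 7.97, 7.60, 8.04 and 7.94 in the HSC-enriched fraction and at 7.05, 7.53, 7.71 and 7.12 in Lin+ cells. Its groups overlapped, since Lin+ replicate 3 lay above HSC-enriched replicate 2. The difference of 0.54 (SE 0.17, adjusted p = 0.037) missed the threshold without Lin+ replicate 1 (adjusted p = 0.094) or 4 (0.101) and without HSC-enriched replicate 1 (0.086), 3 (0.096) or 4 (0.078). Without HSC-enriched replicates 3 and 4 together it was 0.43 (adjusted p = 0.224).

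Cxadr was at 6.53, 6.25, 6.13 and 6.15 on the HSC-enriched arrays and at 6.07, 5.70, 5.60 and 5.95 on the Lin+ arrays. The groups were separated by only 0.06. Its difference of 0.43 (SE 0.14, adjusted p = 0.040) missed the threshold without Lin+ replicate 2 (adjusted p = 0.105), 3 (0.109) or 4 (0.052) and without HSC-enriched replicate 1 (0.104) or 2 (0.079). With arrays centred on their medians, adjusted p was 0.052, and without HSC-enriched replicates 3 and 4 together the difference was 0.56 (adjusted p = 0.049).

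Ncam1 was the member with the widest fall. Ncam1 (17967) encodes NCAM, the neural cell adhesion molecule known on human natural killer cells as CD56. Its level was 5.25, 5.40, 5.00 and 5.06 on the HSC-enriched arrays and 7.02, 7.55, 7.90 and 7.46 on the Lin+ arrays. Only 2 of the HSC-enriched arrays lay above the background guide, and the groups were 1.62 apart. Ncam1 fell by 2.30 (SE 0.18, 95% interval -2.70 to -1.90, adjusted p = 6.2e-06), and it had the 548th lowest difference of all genes. All 10 T and NK cell markers fell as well, with list means of 4.58 to 4.99 on HSC-enriched and 7.57 to 7.81 on Lin+ arrays. That fall was not particular to them. Their median difference was -2.95, beside -4.48 for B cell, -3.72 for neutrophil, -3.24 for erythroid and -3.10 for monocyte and macrophage markers. Eosinophil, basophil and mast cell markers fell less (-1.79). The part of any of these cell types in the Ncam1 result was not tested.

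Mcam, Pecam1 and Cadm1 were lower by under 2-fold. Mcam (84004) encodes CD146, an adhesion molecule of endothelium and perivascular stromal cells. It was at 4.93, 4.90, 5.20 and 4.99 on the HSC-enriched arrays, 1 of which was above the background guide, and at 5.36, 5.50, 6.00 and 5.43 on the Lin+ arrays. The difference was -0.57 (SE 0.15, adjusted p = 0.017). It kept its call without HSC-enriched replicates 3 and 4 (-0.66, adjusted p = 0.040).

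Pecam1 (18613) encodes CD31, which lines endothelial contacts and is also present on platelets and most leukocytes, where its tail can recruit tyrosine phosphatases. The HSC-enriched arrays were at 7.84, 7.90, 7.99 and 7.99 and the Lin+ arrays at 8.19, 8.48, 8.22 and 8.23. Both groups were far above the background guide and 0.20 apart. The difference of -0.35 (SE 0.10, adjusted p = 0.027) missed the threshold without Lin+ replicate 2 (adjusted p = 0.078), HSC-enriched replicate 1 (0.071) or HSC-enriched replicate 2 (0.068).

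Cadm1 (54725) encodes an adhesion molecule of epithelium, synapses and mast cells that binds CRTAM on lymphocytes. It was at 4.11, 4.17, 4.23 and 4.24 on the HSC-enriched arrays and at 4.59, 4.61, 4.73 and 4.45 on the Lin+ arrays. The groups were 0.21 apart, but all 8 arrays lay under the background guide. The difference of -0.41 (SE 0.10, adjusted p = 0.010) is thus one between levels that both lie under the guide.

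**Figure D2:**
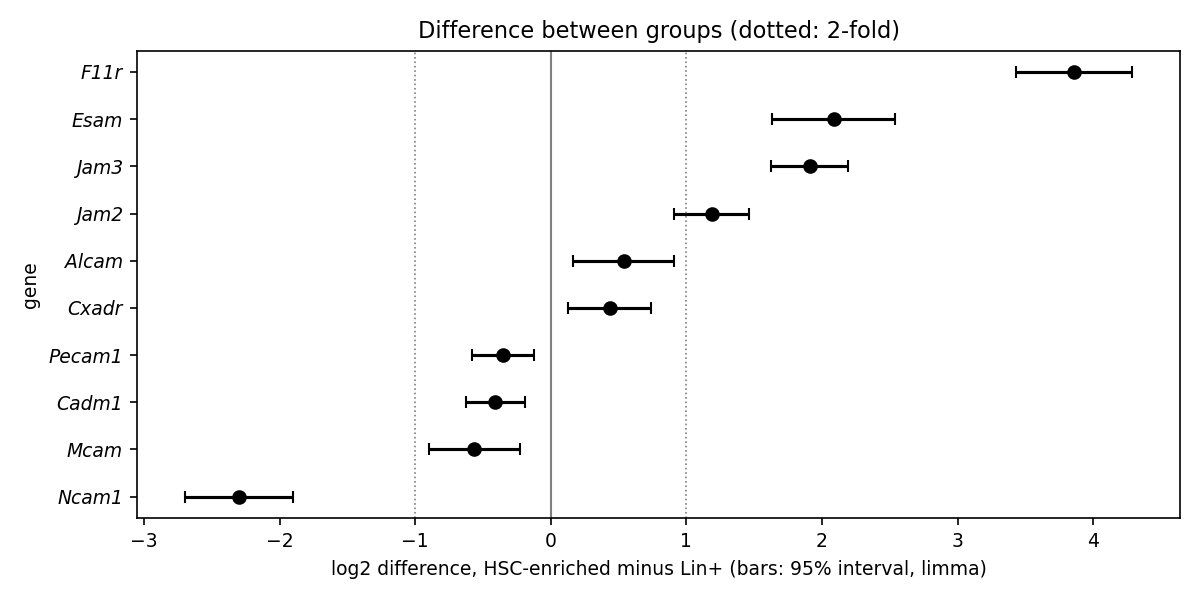
Log2 difference, HSC-enriched minus Lin+ (horizontal axis), of each gene (vertical axis) with its 95% interval from limma over 4 arrays a group, and dotted lines at 2-fold. The interval of F11r (3.43 to 4.29) lies above every other, the intervals of Alcam and Cxadr overlap, and that of Ncam1 (-2.70 to -1.90) lies below every other.

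The order of the differences ran F11r, Esam, Jam3, Jam2, Alcam, Cxadr, Pecam1, Cadm1, Mcam and Ncam1. Neighbours in that order were compared by the gap between their differences, with a two-sided exact permutation test over the 70 splits of the arrays, whose smallest p is 0.029, adjusted over 9 pairs. The gap was 1.77 between F11r and Esam, 0.72 between Jam3 and Jam2, 0.78 between Cxadr and Pecam1 and 1.74 between Mcam and Ncam1, each with that smallest p and an adjusted p of 0.064 (exact permutation). No neighbouring pair passed 0.05 after adjustment, but any could pass only if most of the 9 pairs had that smallest p. The test therefore does not decide whether neighbours differ, and the pairs were set by the observed order of the same differences. Esam and Jam3 were 0.18 apart (exact p = 0.314), Alcam and Cxadr 0.10 (exact p = 0.743), and Pecam1 and Cadm1 0.06 (exact p = 0.571).

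Within the HSC-enriched group the members varied in different directions between arrays. The mean of replicates 3 and 4, where neutrophil transcripts were higher, was below that of replicates 1 and 2 by 0.50 for Esam, 0.33 for F11r, 0.30 for Jam3, 0.17 for Jam2, 0.25 for Cxadr and 0.30 for Ncam1. For Alcam, Mcam, Pecam1 and Cadm1 it was above by 0.21, 0.18, 0.12 and 0.09. Without replicates 3 and 4 the differences of F11r, Esam, Jam3 and Jam2 were 4.02, 2.34, 2.06 and 1.27, as large as with them, and that of Ncam1 was -2.15. Over all members, 5 were then higher and 3 lower, with no share of all genes counted at that setting.

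**Figure D3:**
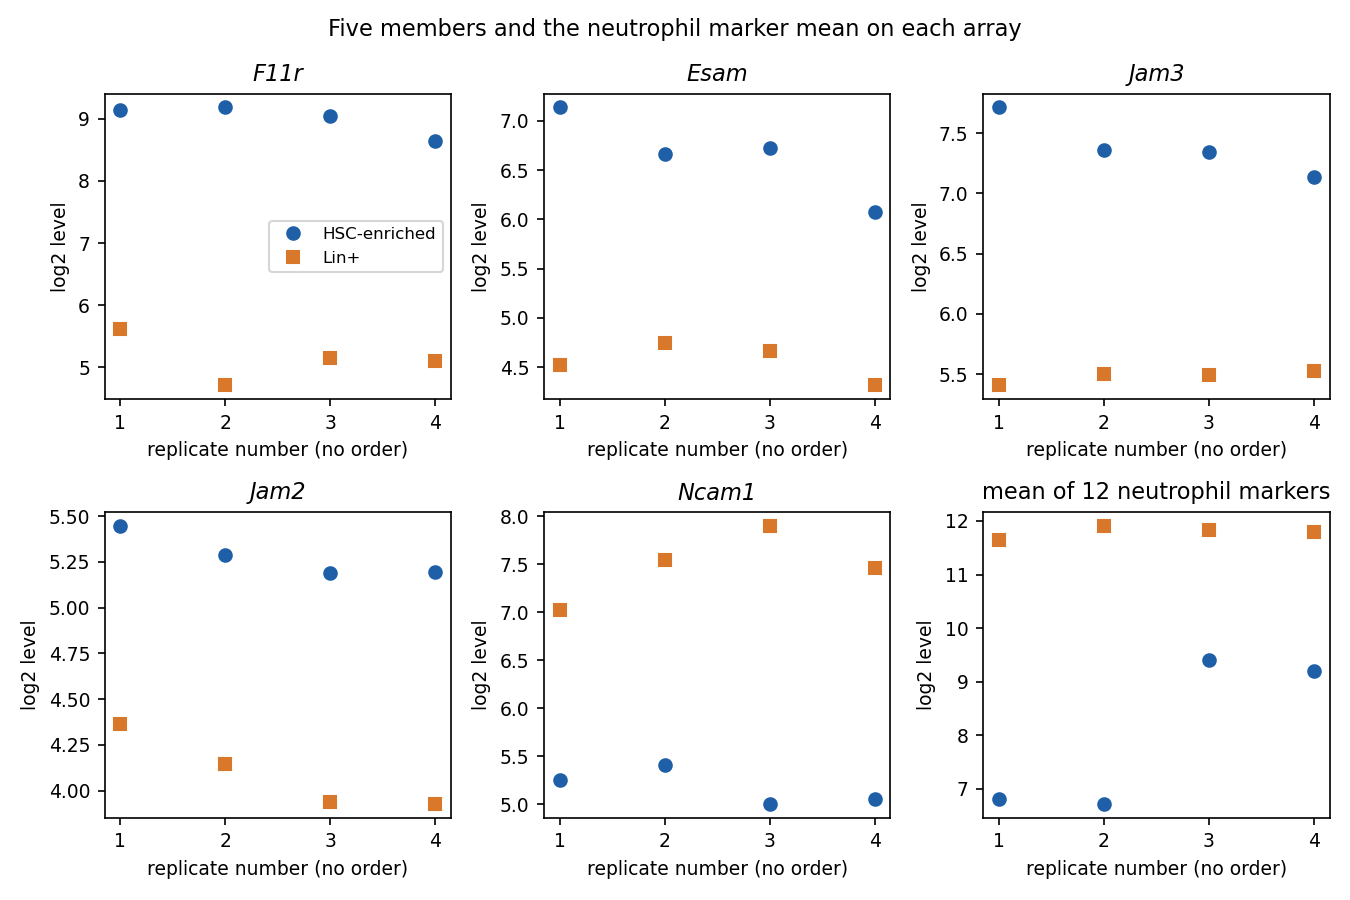
Log2 level (vertical axes) of F11r, Esam, Jam3, Jam2 and Ncam1 and the mean of 12 neutrophil markers on each array, by replicate number (horizontal axes, which imply no order), with circles for HSC-enriched and squares for Lin+ arrays. The neutrophil mean of the HSC-enriched group is 6.82, 6.71, 9.40 and 9.21, and the groups stay apart for all 5 genes.

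Several members are known from endothelium and platelets, so markers of those cells were read beside them. Of 13 endothelial markers 5 rose: Emcn, Tie1, Robo4, Vwf and Egfl7, of which Emcn was 18.6-fold and Tie1 9.01-fold higher, both against Lin+ means under the background guide. Cdh5, which encodes VE-cadherin, did not pass (5.89 against 6.25, adjusted p = 0.497), and Cldn5, Sox17 and Ptprb had means below the guide in both groups. The list averaged 6.06 to 6.44 on HSC-enriched and 5.02 to 5.12 on Lin+ arrays. Its median difference was only 0.30, and 8 of the 13 markers did not pass. Of 10 measured megakaryocyte and platelet markers 6 rose, among them Gp9 (4.39-fold), Pf4 (2.60-fold) and Vwf, which is on both lists. The other 4 did not pass: Itgb3 (-0.30), Ppbp (-0.02), Gp6 (-0.08) and Gp1bb (0.27). The list averaged 6.60 to 7.00 on HSC-enriched and 5.66 to 6.12 on Lin+ arrays. Of 12 stromal markers 1 rose and 2 fell, with list means of 4.50 to 4.66 against 4.53 to 4.61. The part of endothelial or megakaryocyte transcripts in the rise of Esam, F11r, Jam2 and Jam3 was not tested.

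Relatives and partners of the members were counted in 8 lists. Of 94 measured genes 22 rose and 25 fell, against 15.5% higher and 12.4% lower among all genes tested, with a median difference of -0.08. Means were under the background guide in both groups for 26 of them. At least 2-fold, 8 rose and 15 fell, against 4.80% and 6.08% of all genes.

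**Figure D4:**
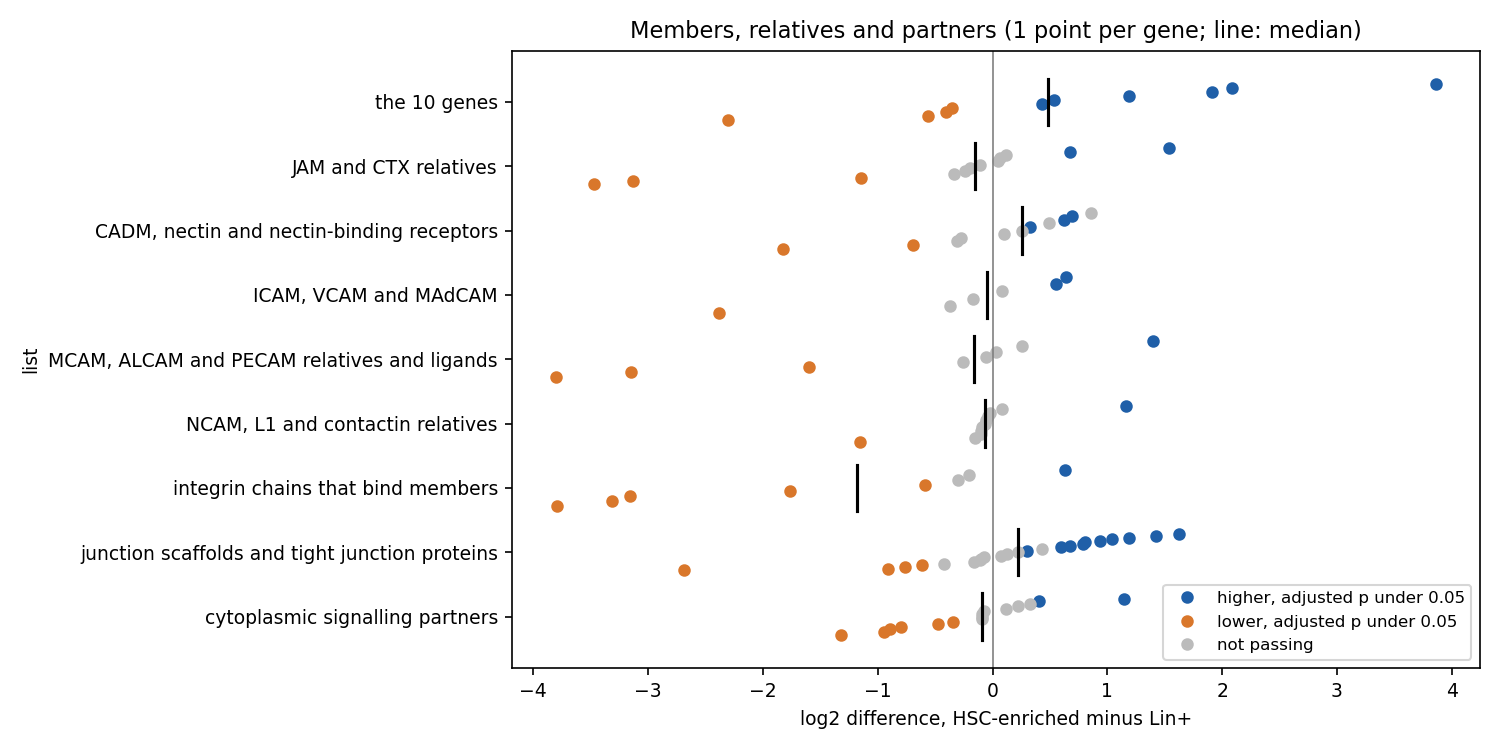
Log2 difference, HSC-enriched minus Lin+ (horizontal axis), of the 10 genes and of each measured gene in 8 lists of relatives and partners (vertical axis), 1 point per gene, coloured by the limma call at an adjusted p of 0.05, with the list median as a black line. The integrin list has its median at -1.18 and the junction list at 0.22.

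Of 8 chains of integrins that bind the members 5 fell, 1 rose and 2 did not pass, with a median of -1.18. Itgal and Itgb2, the chains of LFA-1, were 9.92-fold and 8.95-fold lower (adjusted p = 5.6e-07 and 8.2e-07), and Itgam, the alpha chain of Mac-1, was 13.9-fold lower (adjusted p = 4.8e-05). Itgam was uneven in the HSC-enriched group, at 5.89, 5.72, 7.11 and 7.78, the last 2 being the arrays with more neutrophil transcript. Itgax fell 3.40-fold, to an HSC-enriched mean under the background guide, while Itgav (-0.20) and Itgb3 (-0.30) did not pass. The chains of VLA-4, singled out after their values were seen because JAM-B binds that integrin, went opposite ways: Itga4 was 9.26 ± 0.09 in Lin+ and 8.67 ± 0.14 in HSC-enriched cells (log2, SD, n = 4), and Itgb1 was 8.55 ± 0.14 and 9.18 ± 0.05.

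Of 23 junction scaffolds and tight junction membrane proteins 10 rose and 4 fell, with a median of 0.22. Mpdz and Patj, multi-PDZ scaffold genes of junctions, were 3.08-fold and 2.06-fold higher, against Lin+ means under the background guide. Afdn, which encodes afadin and ties nectins and JAMs to actin, rose 2.28-fold, at 6.82, 6.86, 6.59 and 6.43 against 5.50, 5.26, 5.64 and 5.55. Among claudins, the strand proteins of tight junctions, Cldn12 rose 2.68-fold and Cldn1 fell 6.45-fold. Cldn1 was uneven in the HSC-enriched group, at 4.30, 3.92, 4.87 and 6.04, with only replicate 4 above the guide. Tjp3 (0.13) and Cgn (-0.10) did not pass.

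The list of other JAM and CTX relatives, which also took in further genes with a single V-type domain, held genes of both directions: of 12, 2 rose and 3 fell (median -0.15), and 6 had means under the background guide in both groups. Vsig2 was 2.90-fold higher (adjusted p = 0.00013), its Lin+ mean of 4.39 lying under the guide. Jaml, whose product on leukocytes binds the coxsackie and adenovirus receptor, fell 11.1-fold to an HSC-enriched mean of 4.51, also under the guide, and Vsir, an immune checkpoint gene, fell 8.77-fold. Mpzl3 fell 2.22-fold, again to a mean under the guide, whereas Clmp (-0.24) and Igsf5 (-0.20) did not pass.

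Relatives of the other members went both ways. Of 11 CADM, nectin and nectin-binding genes 3 rose and 2 fell (median 0.26). Cd226, a lymphocyte receptor for nectin-type ligands, fell 3.54-fold to an HSC-enriched mean under the guide, and Nectin1 (0.26) and Nectin2 (0.10) did not pass. Of 6 ICAM, VCAM and MAdCAM genes 2 rose and 1 fell (median -0.04), the latter being Vcam1, an integrin ligand, at 5.59, 5.08, 6.19 and 5.43 against 6.75, 8.40, 8.12 and 8.54 (5.20-fold, adjusted p = 0.00074). Icam4 (-0.37) did not pass with all arrays and did without Lin+ replicate 1 (-0.52, adjusted p = 0.040), and Madcam1 (0.08) did not pass.

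Among 8 relatives and ligands of MCAM, ALCAM and PECAM 1 rose and 3 fell (median -0.16). Bcam, a laminin receptor gene close to Mcam and Alcam in structure, was 2.64-fold higher, while Ceacam1, Cd22 and Sirpa were 13.9-, 8.85- and 3.03-fold lower, with the HSC-enriched mean of Cd22 under the guide. The HSC-enriched levels of Ceacam1, at 6.04, 5.88, 7.30 and 7.35, were also higher on replicates 3 and 4. Cd47 (-0.06), the ligand of SIRP-alpha, and Cd200 (0.03) did not pass.

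Ncam1 stood beside few measurable relatives, since 9 of the 11 NCAM, L1 and contactin genes had means under the background guide in both groups. Of the 11, 1 rose and 1 fell (median -0.07). L1cam fell with Ncam1, from 6.37 ± 0.19 to 5.21 ± 0.12, a 2.23-fold difference, while Ncam2 was 2.24-fold higher at levels under the guide in both groups (4.64 ± 0.31 against 3.47 ± 0.07). Nfasc (0.08) and Cntn2 (-0.02) did not pass.

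Of 15 cytoplasmic signalling partners 2 rose and 6 fell (median -0.09). Plcg1, which encodes a phospholipase downstream of receptor tyrosine kinases, rose 2.22-fold, and Ezr, which encodes the membrane-to-actin linker ezrin, fell 2.50-fold. Rap1b (-0.09), a small GTPase of integrin activation, and Shc1 (-0.07) did not pass.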

How the data were processed

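Total RNA, about 5 ng per sample, was amplified and run on Affymetrix MouseGene ST arrays in 1 colour, per the labels' protocols, which name more than 1 version of that array without tying samples to versions. The deposited values are log2 levels of 24973 probe sets on 8 arrays. RMA and Partek are named per the submitters' processing notes, whereas genome build and probe set definition were not given in the sources used here. No detection calls accompany them. Of the probe sets, 24015 carry 1 symbol, 0 several and 958 none. Symbols were updated by Entrez gene ID for 23922 through RefSeq (GRCm38.p6). The brightest probe set of a symbol was kept, leaving 24011 genes.

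Groups were compared by lmFit and eBayes of limma 3.58.1 in R 4.3.3, without covariates or filter and with Benjamini-Hochberg adjustment over all genes. Adjusted p-values without another name, and standard errors, come from that fit. In simulated data 50 of the 24011 genes were changed at each fold size. The fit recovered 16% of 1.41-fold, 70% of 2-fold and 98% of 4-fold changes, and it called 9 unchanged genes. In the measured data it called far larger shares, 15.5% of genes higher and 12.4% lower. The cutoff after adjustment depends on that share, so the recovery rates need not hold for the measured data. A gene that did not pass may still differ by a small amount. Figures were drawn with matplotlib 3.10.9. The number of arrays limits the precision.

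The members, lists and alternatives were chosen with earlier results of these data known. All members were named, and of each list of relatives the passing genes of at least 2-fold (up to 4 each way) and at most 2 of the brightest genes that did not pass. Of the endothelial list, all markers that rose and some that did not pass were named. Of the megakaryocyte and platelet list, some that rose and all that did not pass were named. Of 98 listed relatives and partners 94 were measured. Alternatives were centring, quantile normalization, filters, array weights, trend and robust estimates, a replicate block, a 1.2-fold null and arrays left out.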

Additional observations from a re-analysis of the deposited data

Results flagged for a closer look

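Pecam1 on Lin+ replicate 2 was at 8.48, apart from the other Lin+ arrays at 8.19 to 8.23. The gap to the nearest array was 0.858 of the group's range, above Dixon's critical value for 4 samples. It was the only one of 20 groups of member values past that limit, and chance alone passes it in about 1 in 20 groups.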

How the results depend on the processing

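F11r, Esam, Jam3, Jam2 and Ncam1 kept their direction and call under every alternative that could be fitted, with differences of 3.71 to 4.02, 1.92 to 2.34, 1.80 to 2.06, 1.13 to 1.28 and -2.46 to -2.15. Jam2 was removed by the filter at the median and Cadm1 by both filters. No member changed direction, and Mcam and Cadm1 lost their call only in the test against a 1.2-fold null. That test called 4 members higher and 1 lower, and 12 relatives and partners higher and 22 lower. Pecam1 also lost its call with quantile normalization (adjusted p = 0.052) and without HSC-enriched replicates 3 and 4 (adjusted p = 0.066), and Cxadr with trend and robust estimates (adjusted p = 0.057). Without 1 array, 4 to 5 members were higher and 3 to 4 lower. The causes of these changes were not tested. Shares of all genes called were counted only for the fit without alternatives, so counts under alternatives have none beside them. Replicate numbers showed no clear pairing of the arrays. Deviations of same-numbered arrays correlated at -0.15 to 0.06, and those of differently numbered arrays at -0.11 to 0.17. Of 8 arrays, 3 correlated best with their own number, which does not exclude a pairing. With the replicate block 5 members were higher and 3 lower, Alcam (adjusted p = 0.057) and Pecam1 (adjusted p = 0.071) not passing. Levels near background limit the folds of F11r, Esam, Jam2, Ncam1, Mcam and Cadm1.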

Other observations

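For each member with at least a 2-fold difference, the genes most like it over the 8 arrays were listed by Pearson r, as a description. All arrays enter, so the measure mostly follows the group difference, and 1675 to 1900 genes had an r over 0.9 with each of these members. Nearest to F11r were Dkkl1, Tgfbr3, which encodes a TGF-beta co-receptor, and Tnip3 (r = 0.998, 0.997 and 0.996). Nearest to Esam were Stk25, Paics and Ptpn21 (r = 0.997, 0.996 and 0.995). Jam3 was nearest to Ephb6, Gsta4 and Smarca2 (r = 0.999, 0.998 and 0.997), and Jam2 to Cdca7l, Pbx4 and Polr3e (r = 0.994, 0.993 and 0.992). Each of F11r, Esam, Jam3 and Jam2 had an r over 0.9 with the other three. Ncam1 was nearest to Il6ra, an interleukin 6 receptor gene, Adipor1 and Igha, an immunoglobulin heavy chain gene (r = 0.997, 0.995 and 0.995), and of the members only Cadm1 had an r over 0.9 with it. Pearson r takes no account of the size of a difference. Sizes could be unlike, as for Ephb6 (0.36) beside Jam3 (1.91) and Igha (-6.36) beside Ncam1 (-2.30), or close, as for Gsta4 (1.80) beside Jam3.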
